A study of Drosophila melanogaster with 12 samples.

Results

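The cup genes of Drosophila melanogaster are the genes whose annotated symbol ends in -cup. They were taken by symbol from the array's annotation, which gave 11 genes and 14 probe sets among 11982 genes: c-cup (CG15623), d-cup (CG14387), f-cup (CG9611), h-cup (CG6130), m-cup (CG11896), p-cup (CG12993), r-cup (CG10998), s-cup (CG30044), t-cup (CG31858), w-cup (CG7363) and wa-cup (CG10113). The gene named cup, which encodes a binding partner of the cap-binding protein eIF4E in the ovary, has no hyphen in its symbol and was not a member. Where a gene had several probe sets, the brightest stood for it, and no member was removed by any filter.

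RNA of whole testes from males 1 day old was hybridised to 12 Affymetrix Drosophila Genome 2.0 arrays, with 3 biological replicates for each of 4 genotypes, each RNA sample coming from a pool of testes. The genotypes were aly (aly2/aly5P), sa (sa1/sa2), bam (bam1/bamΔ86) and y,w, the control (yw below), which carries the pigmentation mutations its name gives and no lesion named in aly, sa or bam. Germ cells mutant for aly or sa stop as mature primary spermatocytes and form no spermatids, those mutant for bam go on dividing as spermatogonia, and yw testes hold the whole lineage up to sperm. The mutations are carried by every cell of the fly, and a whole testis also holds somatic cells. The deposited values were linear intensities, with a median of 44.7 to 56.1 per array and a lower quartile of 20.7 to 25.1, so that an intensity near those values lies at the dim end of an array, where transcript and background cannot be separated here. In whole testes, fewer cells of a stage and less RNA per cell cannot be told apart.

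In Drosophila most transcription in the male germ line ends at the close of the spermatocyte stage, and spermatids live largely on stored messenger RNA. The cup genes, with a related group called comet genes, are known as the exception: their transcripts are made after meiosis and gather at the far ends of the elongating spermatid tails, in a cup-shaped or comet-shaped pattern that gave the names. The product of aly belongs to tMAC, a complex of the testis related to Myb-MuvB, and that of sa is a testis TAF, a variant of a subunit of the general transcription factor TFIID. Both are needed in spermatocytes for the transcription of many genes of spermatid differentiation.

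All 11 cup genes were lower in bam than in yw. In each of the arrest mutants 10 of 11 were lower than in yw, with m-cup the one that was not called in either. Behind these like counts the genes differed. A group of 6 (c-cup, d-cup, h-cup, p-cup, w-cup and wa-cup) stayed dim in aly, at intensities under 62, and reached 231 to 1424 in sa. The gene t-cup stayed near the bottom of the scale in all mutants, s-cup was dim in all mutants and weak even in yw, r-cup and f-cup were partly present in both arrest mutants, and the aly and yw arrays of m-cup overlapped. A gene was called where limma, fitted to log2(intensity + 16) over all 11982 genes, gave a Benjamini-Hochberg adjusted p under 0.05 and a change of at least 2-fold. Values below are intensities of single arrays or mean ± SD over 3 arrays, and differences are on that log2 scale, which understates the change of dim genes. Where a gene lay in the dim range in 1 genotype, its difference from a brighter genotype is a lower limit of the size, and such sizes cannot be ranked between genes.

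**Figure D1:**
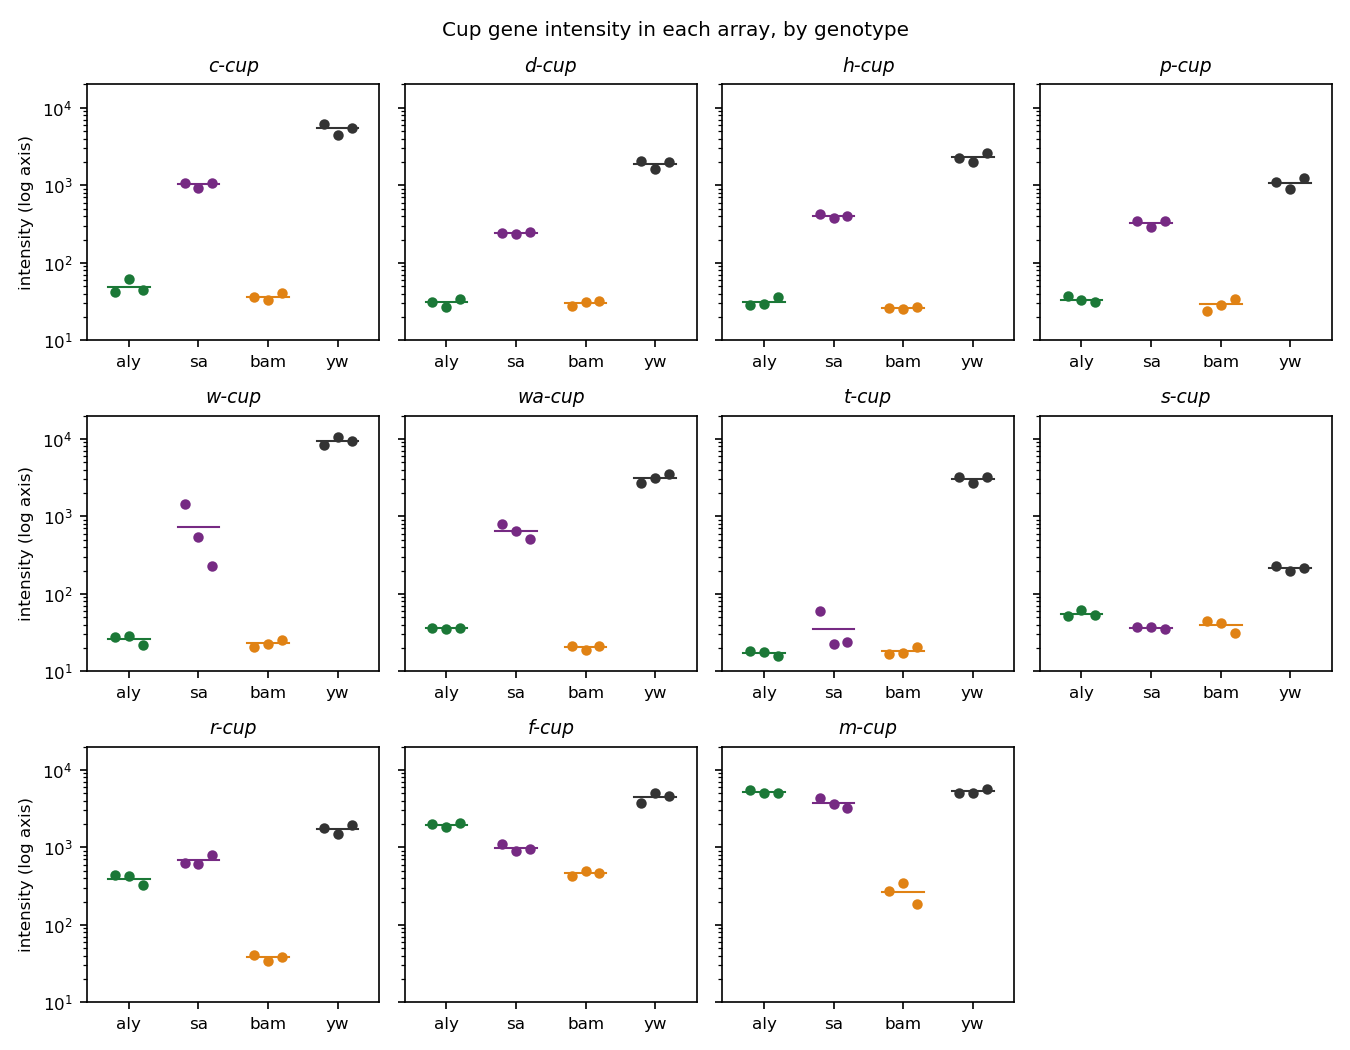
Intensity of each of the 11 cup genes (log axis) in the 3 arrays of each genotype, with aly, sa, bam and yw from left to right, points for arrays and a bar for the mean. The 6 genes from c-cup to wa-cup sit under 62 in every aly and bam array and between 231 and 1424 in the sa arrays, whereas m-cup lies at 3172 or more in the aly, sa and yw arrays.

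The label check by the mutated genes was partial. The sa transcript averaged 107 ± 9.26 in the sa arrays and 1404 ± 195 in yw, whereas the probe sets of aly (138 ± 8.93 in aly and 86.8 ± 2.89 in yw) and of bam (1072 ± 114 in bam and 56.7 ± 17.5 in yw) were not lower in their own mutants. The position of each probe set with respect to its mutation was not examined. The summed intensity of 8 measured testis sheath muscle markers was 1772 to 2509 in aly, 2112 to 3153 in sa, 11894 to 13859 in bam and 2313 to 3749.8 in yw. That of 11 measured accessory gland markers was 6371 to 9199 in aly, 10745 to 23613 in sa, 22858 to 98625 in bam and 12013 to 71112 in yw. The muscle markers thus moved with bam, where 7 of 8 were called higher and 1 lower than in yw, beside 34.2% and 18.5% of all genes. Of the accessory gland markers 4 of 11 were called lower in aly than in yw, beside 15.0% of all genes. Against bam, 10 of 11 accessory gland markers were lower in aly and 2 of 11 in sa, beside 18.7% and 20.6% of all genes. The part of these markers in the cup gene results was not tested.

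The cup genes were first compared in the arrest mutants and yw, which asks how much of their signal is present when germ cells stop before meiosis. As these mutants form no spermatids, they show which cup genes gave signal above the dim range without spermatids. Such signal was seen for m-cup, f-cup and r-cup in both mutants and, in sa alone, for the group that stayed dim in aly. f-cup (462 ± 32.2) and m-cup (267 ± 79.6) were above the dim range in bam as well. Which cells or transcripts gave this signal was not tested. Of the 11 cup genes, 10 were lower and 0 higher in aly than in yw, where 15.0% of all genes were called lower and 28.3% higher. In sa 10 were lower and 0 higher than in yw, where 12.9% of all genes were called lower and 23.9% higher. The median log2 difference of the cup genes was -5.34 in aly minus yw and -2.24 in sa minus yw, beside medians over all genes of 0.15 and 0.08. These comparisons share their yw arrays.

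c-cup measured 41.9, 61.8 and 44.6 in the aly arrays, 1074, 935 and 1078 in sa, 35.9, 33.1 and 40.9 in bam and 6265, 4520.2 and 5552 in yw. Its arrays fell into distinct levels with no overlap between aly, sa and yw, and the sa mean was 18.9% of the yw mean. The difference was -6.38 ± 0.14 (SE) in aly minus yw and -2.38 in sa minus yw (limma adjusted p = 6.36e-12 and 5.84e-08). The same order held for wa-cup, with 36.2, 34.9 and 36.6 in aly, 786, 649.9 and 515 in sa, 21.1, 19.0 and 21.0 in bam and 2665, 3121 and 3551 in yw. For wa-cup the difference was -5.90 in aly minus yw and -2.24 in sa minus yw. The aly and bam arrays of wa-cup all lay below the medians of the arrays, in the dim range, and the aly minus bam difference was not called.

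h-cup measured 28.9, 29.4 and 36.2 in aly, 424, 377 and 405 in sa, 26.5, 25.7 and 26.8 in bam and 2281, 2010.0 and 2596 in yw. d-cup measured 31.4, 27.4 and 34.3 in aly, 244, 237 and 249 in sa, 27.9, 31.3 and 32.4 in bam and 2039, 1634 and 2010.3 in yw. In both genes the sa arrays lay close together, at an SD of 23.6 and 6.32, and far from those of every other genotype. p-cup measured 36.9, 32.9 and 31.2 in aly, 348, 290.2 and 351 in sa, 24.3, 28.7 and 34.4 in bam and 1107, 899 and 1233 in yw. The differences of p-cup from yw were -4.45 in aly and -1.66 in sa, and its sa mean was 30.5% of the yw mean. In d-cup, h-cup and p-cup the aly minus bam difference was not called, with 95% intervals of -0.20 to 0.23, -0.06 to 0.39 and -0.14 to 0.43.

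w-cup measured 27.8, 28.6 and 21.8 in aly, 1424, 539 and 231 in sa, 20.7, 22.7 and 25.4 in bam and 8264, 10612 and 9286 in yw. Its difference from yw was -7.80 ± 0.46 (SE) in aly and -7.91 in bam, both with the mutant arrays in the dim range. The sa arrays of w-cup spread over 6.16-fold, more than those of any other cup gene in any genotype, and sa replicate 1 was the brightest. All sa arrays were nevertheless above every aly and bam array and below every yw array. The sa minus yw difference of -4.01 was -4.66 without sa replicate 1 and -3.39 without sa replicate 3, and was called in both cases.

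t-cup had the lowest sa mean as a share of yw among the cup genes, but a dim sa value gives no ranking. It measured 18.5, 17.6 and 15.7 in aly, 60.0, 22.7 and 23.8 in sa, 16.6, 17.4 and 20.5 in bam and 3219, 2722 and 3174 in yw. All mutant arrays but sa replicate 1 were at or below the upper bound of the arrays' lower quartiles, and every yw array was at 2722 or more. The difference was -6.52 in aly minus yw, -5.96 in sa minus yw and -6.48 in bam minus yw (limma adjusted p = 1.48e-10, 1.71e-09 and 9.33e-11). In sa minus bam it was 0.52 (adjusted p = 0.0487), under the fold minimum, and 0.20 without sa replicate 1 (adjusted p = 0.102). Such low intensities give no fold that could be trusted between the mutants.

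s-cup was weak throughout, with 51.1, 62.4 and 52.8 in aly, 37.2, 37.8 and 35.1 in sa, 44.7, 42.1 and 31.7 in bam and 229, 199 and 213 in yw. Every yw array stood above every mutant array, and the differences from yw were -1.69 in aly, -2.12 in sa and -2.05 in bam (all called). The sa and bam arrays overlapped, with a 95% interval of -0.30 to 0.16 for sa minus bam. A second, dimmer probe set of s-cup averaged 18.8 in aly, 22.5 in sa, 17.0 in bam and 38.1 in yw, and its differences from yw (-0.63 in aly, -0.48 in sa and -0.70 in bam) were in the same direction but under the fold minimum.

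r-cup, f-cup and m-cup were well above the dim range in both arrest mutants. r-cup measured 436, 429.8 and 323 in aly, 631, 616 and 799 in sa, 40.8, 34.0 and 39.0 in bam and 1753, 1498 and 1962 in yw. No arrays of different genotypes overlapped, and r-cup was lower than in yw, with differences of -2.09 in aly and -1.33 in sa. A second probe set of r-cup gave 218 ± 40.7 in aly, 265 ± 17.8 in sa, 37.0 ± 4.31 in bam and 1161 ± 296 in yw and was likewise called lower than in yw, at -2.31 in aly, -2.03 in sa and -4.44 in bam. The remaining probe set of r-cup stayed between means of 18.9 and 21.5 in all genotypes.

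f-cup measured 2024, 1845 and 2043 in aly, 1098, 905 and 952 in sa, 428, 492 and 467 in bam and 3768, 4952 and 4662 in yw. It was the only cup gene with the order bam, sa, aly and yw from low to high and no overlap between any of them, and it was lower than in yw, with differences of -1.16 in aly and -2.16 in sa. Its probe set, like that of s-cup, carries the suffix by which the array's maker marks probe sets that can match more than 1 transcript, though the annotation gives it 1 gene. m-cup measured 5547, 5039.6 and 5020.3 in aly, 4326, 3665 and 3172 in sa, 274, 343 and 184 in bam and 5039, 5095 and 5674 in yw. The aly and yw arrays of m-cup overlapped, with a difference of -0.02 and a 95% interval of -0.43 to 0.39. The sa arrays lay below both, by -0.51 against yw (adjusted p = 0.031), which is under the fold minimum. With every array centred on its 41 measured ribosomal protein genes, which shifted the median of all genes to -1.04 in aly minus yw and -1.16 in sa minus yw, m-cup was called lower in both, at -1.21 and -1.76.

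**Figure D2:**
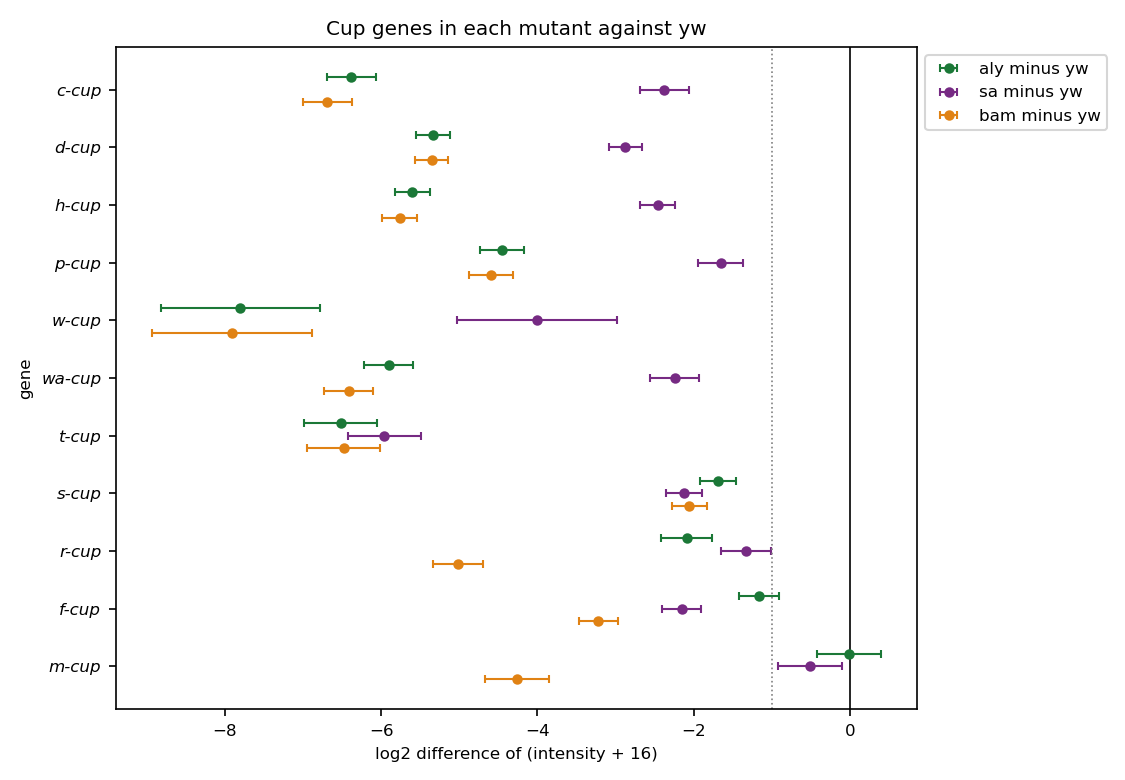
Log2 difference of (intensity + 16) from yw for each cup gene (points, with 95% intervals from limma) in aly, sa and bam, with the dotted line at a 2-fold decrease. For the 6 genes from c-cup to wa-cup the aly and bam points lie together between -4.45 and -7.91 and the sa points between -1.66 and -4.01, whereas for m-cup the bam point alone lies left of the dotted line.

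In bam testes, which hold neither spermatocytes nor spermatids, all 11 cup genes were lower than in yw and 0 higher, where 18.5% of all genes were called lower and 34.2% higher, with a median of -5.35 beside 0.18 over all genes. The differences ran from -2.05 in s-cup to -7.91 in w-cup, which is no ranking of the genes, since sizes are lower limits where bam was dim. The least dim cup genes in bam were f-cup (462 ± 32.2) and m-cup (267 ± 79.6), and the means of the other 9 lay between 18.2 and 39.5. For m-cup the difference was -4.26 and for f-cup -3.22. The sheath muscle markers given above were higher in bam than in yw and moved with this comparison.

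Set against bam, the arrest mutants ask which transcripts appear once germ cells have become spermatocytes. In sa 9 of 11 cup genes were higher than in bam and 0 lower, where 20.5% of all genes were called higher and 20.6% lower, and the median difference was 3.30 beside -0.09 over all genes. In aly 3 of 11 were higher and 0 lower, where 16.3% of all genes were called higher and 18.7% lower, and the median was 0.30 beside 0.04. The 3 genes higher in aly were m-cup (4.24), r-cup (2.92) and f-cup (2.06). The same 3 were among the 9 higher in sa, at 3.75, 3.69 and 1.06, together with the 6 genes c-cup (4.31), wa-cup (4.18), w-cup (3.90), h-cup (3.30), p-cup (2.94) and d-cup (2.48). The f-cup call in sa was lost with median centring (0.85), a pseudocount of 64 (0.99), array weights (0.96) and without sa replicate 1 (0.98). The 2 genes not called in sa were t-cup and s-cup. Both comparisons share the bam arrays. Of the 8 sheath muscle markers 7 were lower in aly than in bam and 0 higher, and 7 were lower in sa than in bam and 1 higher, beside the accessory gland counts given above. Their part in these differences was not tested.

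The direct comparison of aly with sa asks how transcripts differ between the loss of a tMAC subunit and that of a testis TAF. Both stop germ cells as primary spermatocytes, but the testes can differ in cell content. Of the 11 cup genes 6 were lower in aly than in sa and 0 higher, where 11.9% of all genes were called lower and 7.90% higher. The median was -2.47, beside 0.10 over all genes. The 6 were c-cup (-4.01 ± 0.14, SE, adjusted p = 1.07e-09), w-cup (-3.80 ± 0.46, SE, adjusted p = 3.91e-05), wa-cup (-3.66), h-cup (-3.14), p-cup (-2.80) and d-cup (-2.47). In all 11 cup genes, called or not, the aly and sa arrays did not overlap, so this does not set the 6 apart. Its share over all genes was not computed.

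The other 5 were not called. r-cup differed by -0.76 (limma adjusted p = 0.00111) and t-cup by -0.56 (adjusted p = 0.0464), both under the fold minimum. The t-cup value was -0.24 without sa replicate 1 (adjusted p = 0.0757) and -0.077 with median centring (adjusted p = 0.752), in the dim range where no fold between mutants can be read. The values of s-cup (0.44), m-cup (0.49) and f-cup (0.99) were positive. f-cup, at 1971 ± 109 in aly and 985 ± 101 in sa, lay at the fold minimum itself (adjusted p = 2.69e-05) and was called higher in aly with median centring (1.47), ribosomal centring (1.05), a pseudocount of 1 (1.00), array weights (1.10), without aly replicate 2 (1.04) and without sa replicate 1 (1.07). The sign of the aly minus sa difference was thus not the same in all 11 cup genes. Sums of spermatogonial and spermatocyte markers differed between these testes. For spermatogonial genes they were 2798 to 2881 in aly and 1559 to 1735 in sa. This gap lay in bam (624 in aly and 303 in sa) and bgcn (2165 and 1253), while vas, ovo, otu and CycE were dim in both. For spermatocyte regulators the sums were 26503 to 28717 in aly and 17684 to 19150.5 in sa. There topi was higher in aly (8263 against 575) and Taf12L in sa (9246 against 4013). Of 8 regulators 3 were called higher and 1 lower in aly than in sa, beside 7.90% and 11.9% of all genes. Called lower in aly than in sa were 2 of 8 sheath muscle markers and 1 of 11 accessory gland markers, beside 11.9% of all genes. The muscle sums given above overlapped between aly and sa, and the accessory gland sums did not. The part of cell content in the cup gene differences was not tested.

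**Figure D3:**
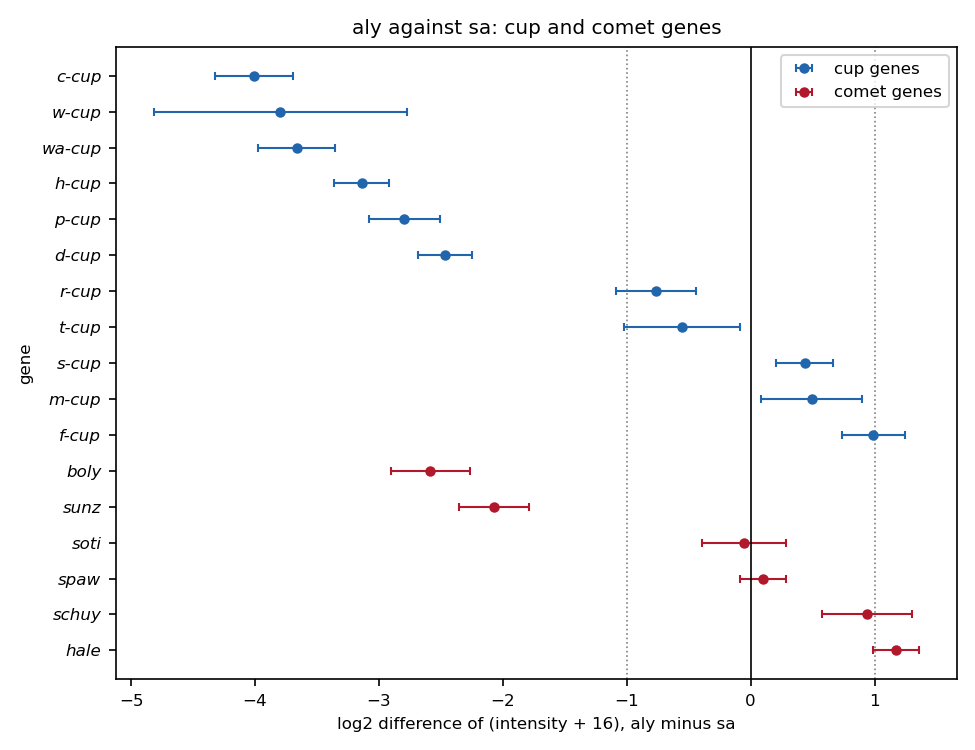
Log2 difference of (intensity + 16), aly minus sa, for the 11 cup genes and the 6 measured comet genes, as points with 95% intervals from limma and dotted lines at a 2-fold change either way. The intervals of 6 cup genes and of boly and sunz lie wholly below the lower line, and the point of hale lies above the upper one.

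The comet genes were taken from a list of 8, of which 6 were measured (soti, schuy, hale, boly, sunz and spaw). In aly 3 of 6 were lower than in yw, in sa 4 of 6 and in bam 5 of 6, with 0 higher in each. Of all genes 15.0%, 12.9% and 18.5% were called lower in these comparisons and 28.3%, 23.9% and 34.2% higher. The gene spaw lay between 12.9 and 24.0 in all 12 arrays, yw included, so it could not have been called lower. The median differences were -1.48 in aly, -1.38 in sa and -5.71 in bam, and without spaw, a choice made after seeing its values, -2.24, -1.46 and -5.81. The cup genes had -5.34, -2.24 and -5.35. Where such medians rest on genes dim in the mutant they are lower limits of the size and do not rank the lists. In aly against sa, boly (-2.58) and sunz (-2.07) were lower, as 6 of the cup genes were, hale was higher (1.17) and schuy was not called (0.94). Of all genes 11.9% were called lower there and 7.90% higher. sunz came closest to the dim group of cup genes, with 29.4 ± 3.13 in aly, 176 ± 27.0 in sa, 23.6 ± 1.56 in bam and 2226 ± 341 in yw. hale had 4191 ± 328 in aly, 1848 ± 98.5 in sa, 78.8 ± 3.56 in bam and 4582 ± 264 in yw, and was not called in aly minus yw. No test between the lists was made.

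Among 13 measured genes of spermatid differentiation, most of them made in spermatocytes and stored, 8 were lower than in yw in aly and 8 in sa, with medians of -1.31 and -1.17. Of all genes 15.0% and 12.9% were called lower in these comparisons. In aly minus sa 5 of 13 were lower, beside 11.9% of all genes, and the median was -0.02. The spermatid mitofusin fzo had 32.6 ± 8.80 in aly, 426 ± 60.0 in sa, 33.8 ± 10.1 in bam and 1252 ± 245 in yw. The sperm-tail gene dj had 17.0 ± 0.151 in aly, 114 ± 46.3 in sa, 16.4 ± 1.14 in bam and 550.4 ± 78.8 in yw. In both genes the aly and bam arrays overlapped in the dim range and every sa array lay above them and below every yw array, as in d-cup and p-cup. The sperm-tail gene Mst87F, at 3905 ± 344 in aly, 8293 ± 659 in sa, 243 ± 26.7 in bam and 16537 ± 813 in yw, was bright in both arrest mutants.

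The likeness of the cup genes to each other was described by Pearson's r of log2 values over the 12 arrays, which share their genotypes. Over 55 pairs r ran from 0.411 (m-cup with t-cup) to 0.998 (c-cup with p-cup), with a median of 0.838. Against the mean profile of the other 10 members, d-cup (0.964) and h-cup (0.96) were closest and m-cup (0.632) was farthest. Outside the members, the genes most like their mean standardised profile were CG32061 (r = 0.9986), CG6761 (0.9979), CG32299 (0.9967), CG8813 (0.9965) and CG10064 (0.9965), among 8474 genes with a mean intensity of at least 100 in some genotype. CG32061 averaged 109 in aly, 409 in sa, 28.6 in bam and 3348 in yw. Of those 8474 genes 691 had an r of at least 0.95 and 30 of at least 0.99, so many genes without a cup name had a like profile.

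By position, 5 cup genes lie on chromosome arm 3R, 3 on 2L, 2 on X and 1 on 2R in the RefSeq table of Release 6, and no cup gene is next to another. Their nearest protein-coding genes on either side, together with protein-coding genes whose spans overlap theirs, number 28, of which 26 were measured. Of the 26, 4 were lower than in yw in aly (15.4%), 4 in sa (15.4%) and 3 in bam (11.5%), beside 15.0%, 12.9% and 18.5% of all genes. These shares were near the background. The neighbour of w-cup that moved was CG6138, with differences of -6.75 in aly, -3.57 in sa and -6.75 in bam, and its intensity was 26.9 to 41.8 in aly, 346 to 462 in sa, 29.2 to 35.2 in bam and 4726 to 5371 in yw. Beside d-cup, CG10909 differed by -4.39 in aly, -2.76 in sa and -4.45 in bam, and CG10126 by -1.25, -1.05 and -0.74, the last not called. Beside r-cup, CG11666 differed by -5.22 in aly, -2.58 in sa and -5.25 in bam, although r-cup itself was at -2.09 in aly. These 4 neighbours were named after their values were seen, since they are all the neighbours that were lower in any mutant.

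Overlapping spans concerned 5 cup genes. h-cup overlaps Rbp, s-cup fdl, t-cup bun, w-cup Trim9 and f-cup both CG14367 and ninaB. None of these 6 genes was called lower in any mutant against yw, beside 15.0% of all genes in aly, 12.9% in sa and 18.5% in bam. So few genes cannot show a departure from those shares. Of the 6, fdl (2.56) and bun (1.05) were higher in bam, where 34.2% of all genes were called higher. For ninaB the differences were -0.81 in aly, -0.89 in sa and -0.997 in bam. The gene next to s-cup is vis, which encodes a homeodomain subunit of tMAC. It was higher in aly than in yw (2.88) and not called in sa (0.79) or bam (-0.88), so it did not follow s-cup.

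**Figure D4:**
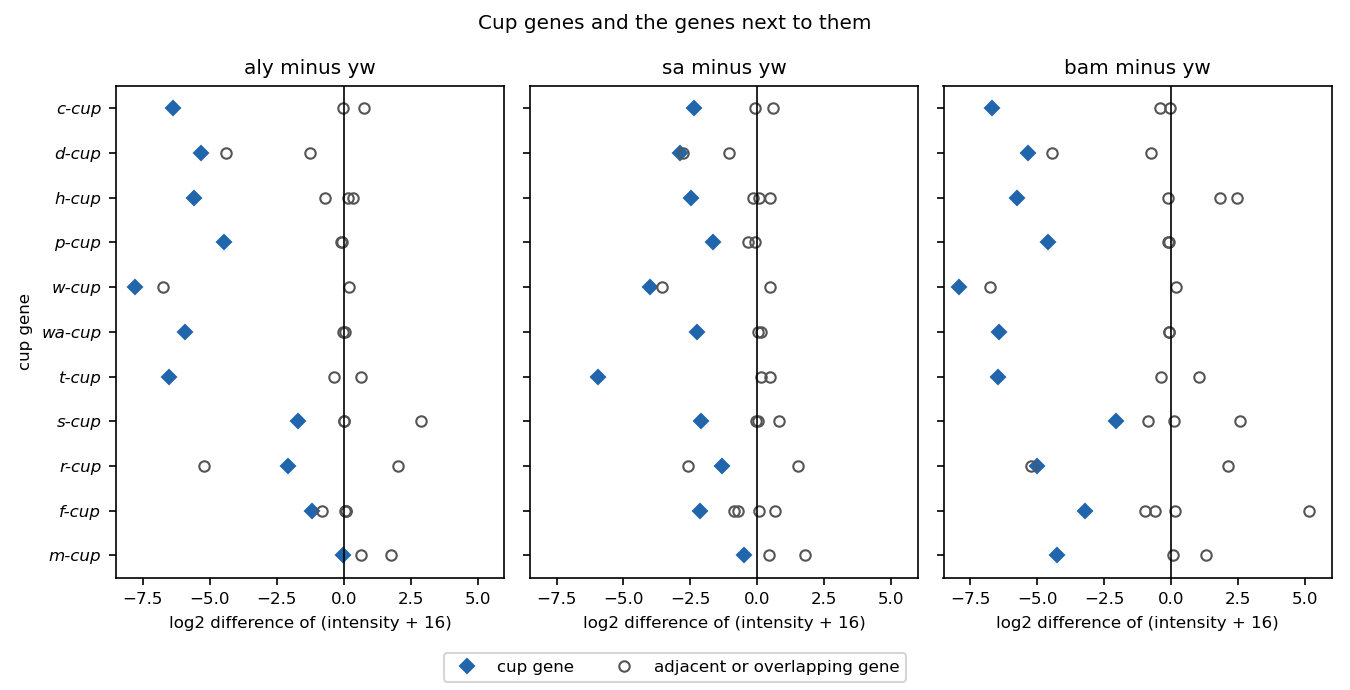
Log2 difference of (intensity + 16) from yw in aly, sa and bam for each cup gene (filled diamonds) and for its measured adjacent or overlapping protein-coding genes (open circles), 1 row per cup gene. Most open circles lie right of the diamond of their row and near 0, and CG6138 in the row of w-cup, CG10909 in that of d-cup and CG11666 in that of r-cup lie far to the left.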

How the data were processed

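Per the series' design text, RNA from pools of testes was extracted with TRIzol, freed of DNA with DNase and hybridised to Affymetrix arrays, and RMA was applied to the scanner files. The submitters' processing notes list MAS5, RMA and limma without versions. The table deposited by the authors holds linear intensities per probe set. Which of MAS5 and RMA gave them, and so their background correction, is not stated. Of 18952 probe sets, 183 were controls and left out, 13647 had 1 gene symbol, 402 several and 4720 none. Entrez identifiers of 13544 were found in the RefSeq table, with 0 symbols changed. Of a gene's probe sets, that with the highest mean log2 value was used, a choice settled after seeing the data. The highest mean intensity gave another probe set for 26 genes and for 0 of the cup genes.

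Differences come from a linear model of all 12 arrays (limma 3.58.1, R 4.3.3), with 1 mean for each genotype, on log2 values computed as log2(intensity + 16), with eBayes and Benjamini-Hochberg adjustment over 11982 genes in each of 6 comparisons. The code was tested on simulated data. An array has no count of reads, so precision rests on the 3 arrays per genotype. The spread of a gene was estimated once over all genotypes, so its SE is the same in all 6 comparisons. For w-cup (SE 0.46) the wide spread of the sa arrays thus enters every comparison, also those without sa. The cup genes, the comparison lists and the rule for named genes (all members, aly, sa, bam, 8 comet genes of which up to 4 are described, Mst87F, dj and fzo, and the 5 genes with the most similar profile) were chosen with earlier results of these data known.

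Other marker lists were summed. For 8 spermatocyte regulators the sums were 26503 to 28717 in aly, 17684 to 19150.5 in sa, 1799 to 2102 in bam and 4938 to 6365 in yw. For 6 spermatogonial genes they were 2798 to 2881 in aly, 1559 to 1735 in sa, 7131 to 7280.1 in bam and 1319.5 to 1568 in yw. For 6 cyst and hub genes they were 458 to 615 in aly, 620.4 to 700.2 in sa, 1086 to 1246 in bam and 375 to 714 in yw. The alternative settings were quantile normalization, centring each array on all genes or on ribosomal protein genes, pseudocounts of 1 and 64, leaving out genes under an intensity of 50, averaging a gene's probe sets, testing all probe sets, fitting the 6 arrays compared alone, blocking on the replicate number, trended robust eBayes, weighting arrays, other thresholds, and leaving out each array.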

Additional observations from a re-analysis of the deposited data

How the results depend on the processing

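Over 27 alternative settings, 1 of them (the probe set with the highest mean intensity) chosen after seeing the data, 55 of the 66 differences of single cup genes (11 genes in 6 comparisons) kept their side of the threshold. Of these, 52 kept their sign too and 3, none of them called, did not (d-cup and t-cup in aly minus bam and s-cup in sa minus bam). No difference called in the reported setting changed sign. The aly minus yw difference of m-cup, called only with ribosomal centring (-1.21), was 0.096 with quantile normalization. The counts of cup genes lower than in yw ran from 10 to 11 in aly and in sa and stayed at 11 in bam, and those lower in aly than in sa ran from 6 to 8. Those higher in sa than in bam ran from 8 to 10. The count higher in aly than in bam was 5 with no fold minimum, against 3. The count higher in aly than in sa was 0 by limma with the fold minimum and 3 without it, and it was 1 with median centring, with ribosomal centring, with a pseudocount of 1 and with array weights; leaving out single arrays gave 0 to 1. Each single call was f-cup, whose difference lies at the fold minimum. Without sa replicate 1 the counts were 10 lower in sa than in yw, 8 higher in sa than in bam and 6 lower in aly than in sa. The counts over all genes moved more. Ribosomal centring gave 1149 genes higher and 6253 lower in aly than in yw (15.5% of the calls higher, against 65.2% as reported), 369 higher and 6699 lower in sa (5.22% against 64.9%) and 1205 higher and 6733 lower in bam (15.2% against 64.9%). With median centring there were 1791 higher in sa than in yw (47% of the calls, against 2861) and 2395 higher in aly than in sa (69.7%, against 946 and 39.9%, and 51.3% with quantile normalization), and 57% of the calls of aly against bam higher, with 59.2% under ribosomal centring, against 46.6%. With no fold minimum, 2865 genes were lower (against 1548) and 4896 higher in sa than in yw, 5133 higher in aly than in yw (against 3385), 2715 lower (against 1427) and 3605 higher in aly than in sa, 4353 lower and 3748 higher in sa than in bam (against 2471 and 2460), and 3607 lower and 3457 higher in aly than in bam (against 2242 and 1953). With the replicate number as a block the cup counts stayed at 10 in aly and in sa and 11 in bam against yw. The labels give no pairing of the samples by number. Of 18 same-numbered pairs of arrays 4 correlated over 0.1 in their deviations from the genotype means, and 2 of 12 arrays correlated best with their own number. With so few arrays per genotype this check cannot exclude a pairing. No background correction could be varied, as scanner files were not used here.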

Other observations

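The high values of w-cup and t-cup in sa replicate 1 were shared by other genes. In that array 22 of 11982 genes (0.184%) were at least 2-fold above both other sa arrays with an intensity of 50 or more. Of these, 7 were not called in sa minus yw. The other 15 were called lower and 0 higher, where 12.9% of all genes were called lower and 23.9% higher. Besides w-cup and t-cup they included ymp, at 852.7, 363 and 191 in the sa arrays and a mean of 9392 in yw, CG10734, at 1131, 513 and 183 with 6422 in yw, and CG5024, at 176, 75.7 and 44.4 with 5039.9 in yw. The sheath muscle genes bt and Prm were among those not called. So were CG15040, at 889, 353 and 67.3 with 123 in yw, and Alms1a, at 1187, 574 and 593 with 688 in yw. These genes were named after their values were seen. The same count was 2 in sa replicate 2 and 8 in sa replicate 3, with no cup gene in either, and it ran from 1 to 220.0 over the arrays of the other genotypes.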
